A study of Rattus with 6 samples.

Results

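Antioxidant defense was followed here through 6 genes, named by their Ensembl identifiers and chosen with earlier results of these data known, although the rule itself uses no measured value, out of the 23092 genes listed for rat ventricular cardiomyocytes, the contractile cells of the ventricle wall. The 6 genes were Sod1 (ENSRNOG00000002115), Sod2 (ENSRNOG00000019048), Cat (ENSRNOG00000008364), Gclc (ENSRNOG00000006302), Nqo1 (ENSRNOG00000012772) and Hmox1 (ENSRNOG00000014117). All of them had reads in each of the 6 libraries, and all of them were among the 11905 genes that passed the filter on low counts and were tested. The question was whether their transcript levels differed between rats exposed to hypergravity and rats that were not. The hypergravity group (n = 3 libraries) came from rats centrifuged at 4 g for 14 days, 8 h on each day, and the control group (n = 3 libraries) from rats without hypergravity. The rats of both groups were male wild-type Wistar animals aged 8 weeks, and ventricular cells were isolated before poly(A)+ RNA was sequenced. The labels do not say whether each library came from a separate rat, so the p-values measure only the spread between these libraries.

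Heart muscle cells respire heavily, and their mitochondria release superoxide as a by-product. Superoxide dismutases convert superoxide to hydrogen peroxide, which catalase and the glutathione- and thioredoxin-dependent peroxidases then remove. Glutathione, the main small thiol of the cell, is supplied by synthesis that starts with glutamate-cysteine ligase. A further layer is inducible: the transcription factor NRF2, held back by KEAP1 in unstressed cells, raises genes such as Nqo1, Hmox1 and Gclc after oxidative or electrophilic stress.

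The libraries held from 24440690 to 45497422 counts on genes, and the 10 most abundant genes took between 52.5% and 73.4% of them. Hypergravity library 3 had the lowest total and the highest share. Levels are given as normalized CPM, the count of a gene per 1000000 counts on genes in its library after scaling by the trimmed mean of M values (TMM). The TMM factors ran from 0.774 in control library 2 to 1.52 in hypergravity library 2, and a larger factor gives a lower level. Levels and orders of libraries below are those after this scaling and depend on these factors. On the first principal component of log2 CPM over all genes tested (45.7% of the variance), hypergravity libraries 1 and 2 and control library 2 had positive scores (38.2, 8.25 and 46.6), and hypergravity library 3 and control libraries 1 and 3 had negative ones (-40.6, -34.7 and -17.7). Hypergravity library 2, with the score nearest to 0, was closer to control library 3 than to the other libraries with positive scores. The largest difference among the libraries therefore did not follow the groups, and each log2 fold change and each mean difference in a ratio below was also computed with every library left out in turn. These are bulk samples, in which fewer cells of a type and less RNA per cell cannot be told apart. Alignments assigned to no counted feature of a gene took 2.85, 3.19 and 3.20% of the alignments listed for control libraries 1, 2 and 3. They took 4.13, 4.40 and 4.07% for hypergravity libraries 1, 2 and 3, and whether they lay between or inside genes was not tested. All hypergravity libraries exceeded all control libraries in this share, and their part in the results was not tested. Markers of cardiomyocytes and of other heart cells were not analysed here.

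After hypergravity, none of the 6 genes passed an adjusted p-value of 0.05 (edgeR's quasi-likelihood test, Benjamini-Hochberg adjustment over 11905 genes), and 0 of 6 passed an unadjusted p-value of 0.05. Among all genes tested, 0.0336% passed the adjusted threshold and 13.6% the unadjusted one (7.35% higher and 6.22% lower, or 875 and 740 genes, which became 843 and 115 with no scaling beyond library size). With DESeq2, 0 of 6 passed after adjustment and 1 of 6, Gclc, before it (unadjusted p = 0.0444). DESeq2 called 3.04% of the 10741 genes to which it gave an adjusted p-value, and 13.4% of the genes to which it gave an unadjusted p-value passed 0.05. The mean level was lower in the hypergravity group for Sod1, Sod2, Cat, Nqo1 and Hmox1, and higher for Gclc. Over all genes tested, 47.7% had a log2 fold change above 0. For each of the 6 genes the libraries of the groups overlapped. Of all genes tested, 21.8% had no overlap (11.3% higher and 10.5% lower), and 6 genes are too few to be told apart from that share. The median log2 fold change of the 6 genes was -0.27, beside -0.02 over all genes tested. It was -0.15 without hypergravity library 2 (all genes -0.01), and 0.04 with no scaling beyond library size, where the median over all genes was 0.32. The 95% interval of the log2 fold change included 0 for each of the 6 genes, and it was narrowest for Sod2 and widest for Hmox1.

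**Figure D1:**
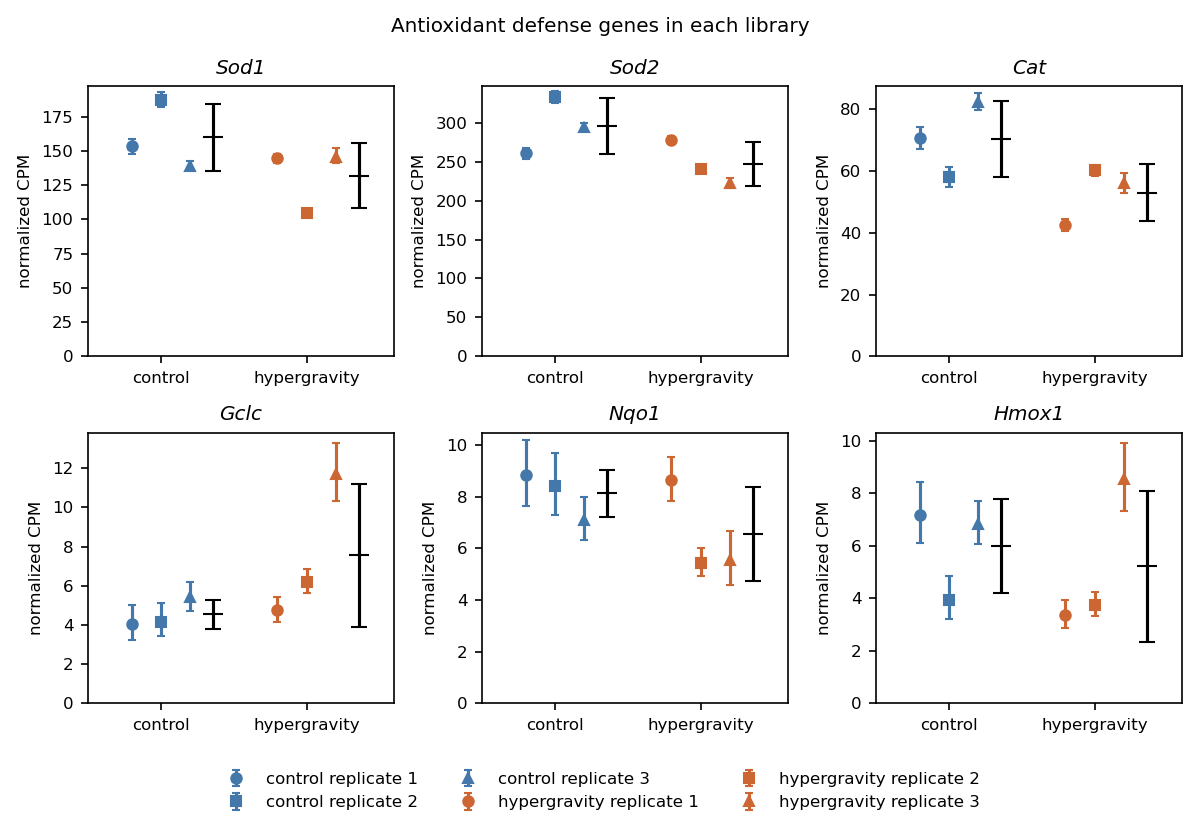
Normalized CPM (linear axis from 0) of the 6 antioxidant defense genes in each of the 3 control and 3 hypergravity libraries. Points are libraries with 95% Wilson intervals for counting error, and black bars are group means ± SD. The groups overlap for each gene. The Gclc level of hypergravity library 3 (11.7 CPM) stands above the other libraries after TMM scaling, but not before it.

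Sod1 encodes the copper-zinc superoxide dismutase of the cytosol. Its level was 154, 187 and 139 CPM in control libraries 1, 2 and 3, and 145, 105 and 146 CPM in hypergravity libraries 1, 2 and 3. Control library 2 was the highest and hypergravity library 2 the lowest, and the 4 libraries between them ran from 139 to 154 CPM without regard to group. The group means were 160 ± 24.6 CPM (SD, n = 3) in control cells and 132 ± 23.7 (SD, n = 3) after hypergravity. The log2 fold change was -0.28 (standard error 0.20, 95% interval -0.74 to 0.19, adjusted p = 0.57). It was -0.12 without hypergravity library 2 and -0.14 without control library 2. Between 2880 and 7238 reads per library stood behind these values, so that counting error was at most 1.86% of the level and well below the coefficient of variation of 15.3% among control libraries.

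Sod2 encodes the manganese superoxide dismutase of the mitochondrial matrix, the compartment where respiration releases superoxide. It had 261, 333 and 295 CPM in control libraries 1, 2 and 3, and 278, 240 and 222 CPM in hypergravity libraries 1, 2 and 3. The highest and second highest libraries were controls and the lowest and second lowest were from the hypergravity group, but hypergravity library 1 lay above control library 1. The mean fell from 296 ± 36.1 CPM (SD, n = 3) to 247 ± 28.4 (SD, n = 3), which is less than the spread allows to be called: the log2 fold change was -0.26 (standard error 0.18, 95% interval -0.68 to 0.15, adjusted p = 0.546), and it was -0.16 without control library 2. In terms of fold, that interval runs from 0.623 to 1.11, and its lower end holds for this fit only. The standard error was 0.37 with no scaling beyond library size (log2 fold change 0.08) and 0.27 with same-numbered libraries as a block (-0.26). Sod2 varied least of the 6 genes, with a biological coefficient of variation (the spread between libraries beyond counting error) of 16.4%, beside a median of 21.6% over all genes tested.

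Cat encodes catalase, the mainly peroxisomal enzyme that splits hydrogen peroxide into water and oxygen. The control libraries 1, 2 and 3 had 70.7, 58.0 and 82.4 CPM, and the hypergravity libraries 1, 2 and 3 had 42.6, 60.3 and 56.1 CPM. Control libraries 3 and 1 were the highest and hypergravity library 1 the lowest, while control library 2 fell between hypergravity libraries 2 and 3, from which it did not differ beyond counting error (their 95% Wilson intervals overlap). Means were 70.4 ± 12.2 CPM (SD, n = 3) and 53.0 ± 9.25 (SD, n = 3), respectively. The log2 fold change of -0.41 (standard error 0.20, 95% interval -0.87 to 0.05) was the lowest of the 6 genes and stood at the 13.9th percentile of all genes tested, with an unadjusted p of 0.073 and an adjusted p of 0.413 (edgeR). It was -0.24 without hypergravity library 1, -0.28 without control library 3 and -0.51 without control library 2 (unadjusted p = 0.0477, adjusted p = 0.423, edgeR). The span of the Cat gene overlaps an uncharacterized locus (LOC134486130) in the RefSeq annotation, and reads shared by both cannot be told apart here.

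Gclc encodes the catalytic subunit of glutamate-cysteine ligase, which carries out the rate-limiting step of glutathione synthesis. Of the 6 genes, only Gclc had a higher mean after hypergravity in the reported fit. The levels were 4.03, 4.16 and 5.40 CPM in control libraries 1, 2 and 3, and 4.75, 6.21 and 11.7 CPM in hypergravity libraries 1, 2 and 3. After TMM scaling, hypergravity library 3 stood apart at 1.88 times the next library, with Wilson intervals that do not meet (10.3 to 13.3 CPM against 5.65 to 6.83). Each of the other 5 libraries lay within counting error of its neighbor in the order. The intervals take the TMM factors as exact, and these were 0.805 for hypergravity library 3 and 1.52 for hypergravity library 2. Before that scaling these libraries were about level, with 230 counts of 24440690 and 430 of 45497422. Hypergravity library 1 was below control library 3, so the groups overlapped.

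The mean Gclc level was 4.53 ± 0.753 CPM (SD, n = 3) in control cells and 7.55 ± 3.66 (SD, n = 3) after hypergravity. The log2 fold change was 0.71 (standard error 0.33, 95% interval -0.04 to 1.47), at the 94.9th percentile of all genes tested, with an unadjusted p of 0.0603 and an adjusted p of 0.391 (edgeR). With TMM scaling, a single library decided its size: without hypergravity library 3 it was 0.27 (unadjusted p = 0.252, adjusted p = 0.542, edgeR), and without each of the other libraries it was between 0.63 and 0.99. Without hypergravity library 1 the unadjusted p was 0.0125, and the adjusted p was 0.271 (edgeR). Read counts of Gclc ran from 82 to 430, and counting error alone was 11.0% of the level in control library 1.

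**Figure D2:**
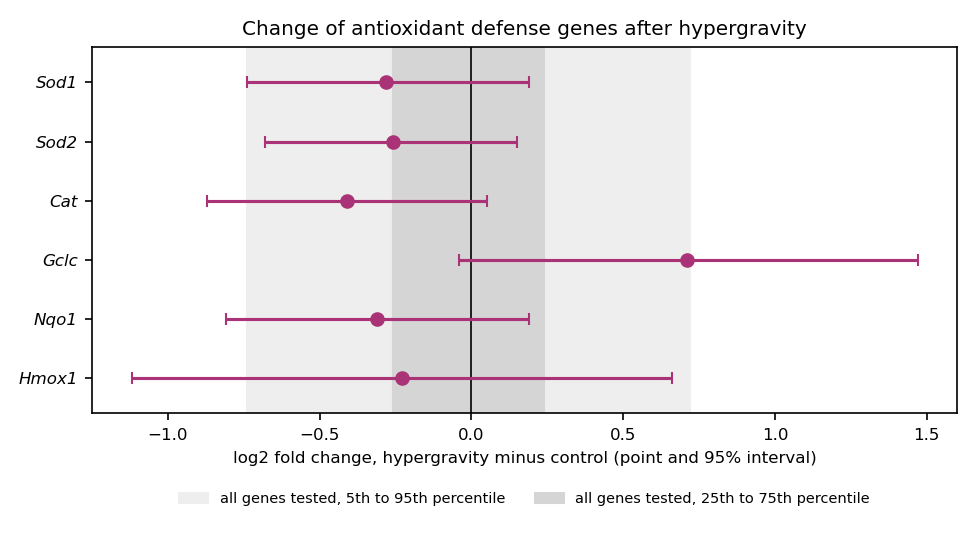
Log2 fold change of each gene, hypergravity minus control (x axis), as points with 95% intervals from edgeR's quasi-likelihood fit (n = 3 libraries per group); gray bands give the 5th to 95th (-0.74 to 0.72) and 25th to 75th (-0.26 to 0.24) percentiles of all 11905 genes tested. Every interval includes 0, and all 6 points lie inside the wider band, with Gclc (0.71) near its upper edge.

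Nqo1 encodes a quinone reductase that uses NAD(P)H to keep quinones from redox cycling, and it is a classical target of NRF2. Its level was 8.85, 8.41 and 7.12 CPM in control libraries 1, 2 and 3, and 8.65, 5.45 and 5.54 CPM in hypergravity libraries 1, 2 and 3. Hypergravity libraries 2 and 3 were the lowest, and hypergravity library 1 lay among the controls. The means were 8.13 ± 0.901 CPM (SD, n = 3) and 6.55 ± 1.82 (SD, n = 3). The log2 fold change was -0.31 (standard error 0.22, 95% interval -0.81 to 0.19, adjusted p = 0.561). Without hypergravity library 1 the log2 fold change was -0.53, with an unadjusted p of 0.0289 that did not hold after adjustment (0.311, edgeR). It was -0.18 without hypergravity library 2 and -0.20 without hypergravity library 3. From 109 to 384 reads were counted, and neighbors in the order of levels lay within counting error of each other throughout.

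Hmox1 encodes heme oxygenase 1, the inducible enzyme that opens heme to biliverdin, iron and carbon monoxide. Control libraries 1, 2 and 3 had 7.18, 3.94 and 6.84 CPM, and hypergravity libraries 1, 2 and 3 had 3.36, 3.76 and 8.54 CPM. After TMM scaling, the 3 higher libraries (control 1 and 3 and hypergravity 3) ran from 6.84 to 8.54 CPM. The 3 lower ones (control 2 and hypergravity 1 and 2) ran from 3.36 to 3.94 CPM, and both groups had libraries at either end. Before that scaling, control library 1 (146 counts of 25151759) and hypergravity library 2 (260 of 45497422) were about level, so this split depends on the scaling. The widest step in the order after TMM scaling, 1.73 times between control libraries 3 and 2, exceeded counting error but was picked from these 6 values. It does not show separate sets given the spread between libraries. The libraries that were higher after TMM scaling were those with negative scores on the first principal component, to which Hmox1 itself contributes. What else differs between these libraries was not tested.

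The Hmox1 means were 5.99 ± 1.78 CPM (SD, n = 3) in control cells and 5.22 ± 2.88 (SD, n = 3) after hypergravity. The log2 fold change was -0.23 (standard error 0.39, 95% interval -1.12 to 0.66, adjusted p = 0.828). This was the least certain change of the 6: the interval covers folds from 0.461 to 1.58, and the biological coefficient of variation was 34.5%, above that of 79.7% of all genes tested or equal to it. Leaving out hypergravity library 3 gave -0.75 (unadjusted p = 0.0306, adjusted p = 0.273, edgeR), and leaving out hypergravity library 1 gave 0.04. The span of Hmox1 also overlaps an uncharacterized locus (LOC134483111) in the RefSeq annotation.

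The genes did not share an order of libraries, and the orders depended on the TMM factors. Before that scaling, Sod2 had a larger share of counts in hypergravity library 2 (16623 of 45497422) than in control library 2 (7608 of 29500913). The ranks that follow are those after TMM scaling. Control library 2 was highest for both dismutases, Sod1 and Sod2, but ranked 4 of 6 for Cat and for Hmox1. Hypergravity library 3 was highest for Gclc and Hmox1 and lowest for Sod2. Hypergravity library 1 was lowest for Cat and for Hmox1 and second highest for Nqo1. Hypergravity library 2 was lowest for Sod1 and for Nqo1, and second highest for Gclc.

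**Figure D3:**
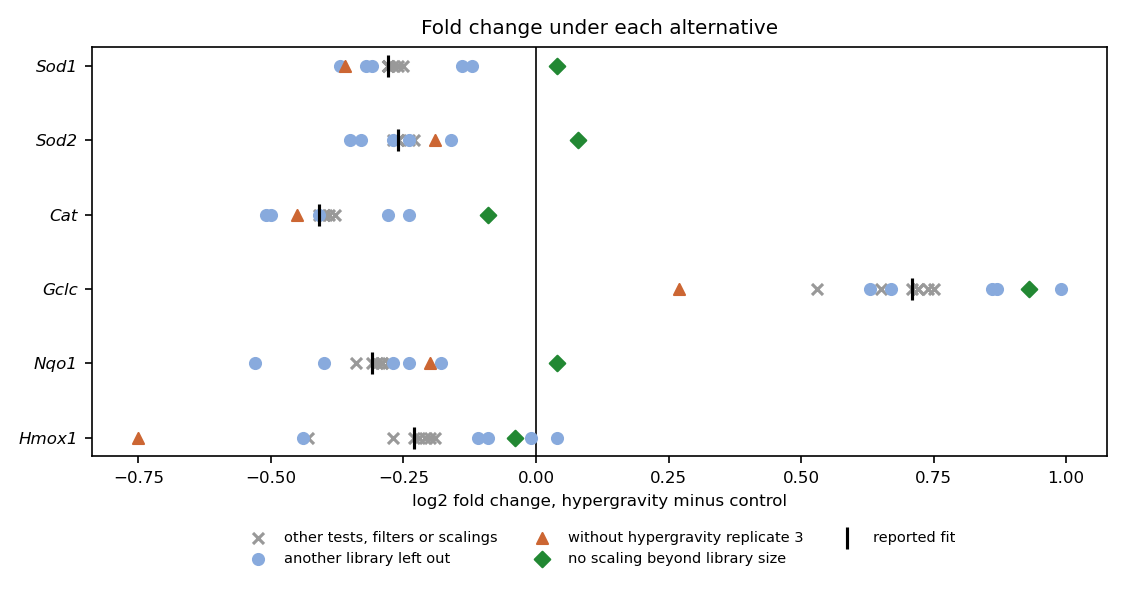
Log2 fold change of each gene, hypergravity minus control (x axis), in the reported fit (black bar) and in 14 alternatives: another test, filter or scaling, the replicate block, or a library left out. Gclc stays above 0 throughout and drops to 0.27 without hypergravity library 3, and Sod1, Sod2 and Nqo1 move from below 0 to between 0.04 and 0.08 with no scaling beyond library size.

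The sign of the changes of both dismutases and Nqo1 depended on how libraries were scaled to each other. With TMM scaling, 5 of the 6 genes were lower after hypergravity, and over all genes tested 47.7% had a log2 fold change above 0. With no scaling beyond library size, the median log2 fold change over all genes moved from -0.02 to 0.32, and the log2 fold change was 0.04 for Sod1, 0.08 for Sod2 and 0.04 for Nqo1, with Cat at -0.09, Hmox1 at -0.04 and Gclc at 0.93. Relative to that shifted median, Sod1 stood at -0.28, Sod2 at -0.23, Nqo1 at -0.27, Cat at -0.41, Hmox1 at -0.35 and Gclc at 0.61. Under both scalings, 5 of the 6 genes therefore lay below the median gene and Gclc above it, and none passed the adjusted threshold. By definition as many genes lie below a median as above it. Both scalings use the same counts, so neither is separate support for the other. Without hypergravity library 1, or without hypergravity library 2, 4 of the 6 lay below the median gene.

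Ratios of the counts of a pair of genes within a library do not depend on that scaling, although they are ratios of reads and not of molecules, since gene length was not used. The log2 ratio of Sod2 to Sod1, the mitochondrial over the cytosolic dismutase, was 0.77, 0.83 and 1.08 in control libraries 1, 2 and 3, and 0.94, 1.20 and 0.60 in hypergravity libraries 1, 2 and 3. The hypergravity libraries spanned a range that contained every control library. The means were 0.89 ± 0.16 (SD, n = 3) and 0.91 ± 0.30 (SD, n = 3), a difference of 0.02 (two-sided exact permutation test, p = 1, and 1 after Benjamini-Hochberg adjustment over 3 ratios, where 0.1 is the smallest p that 3 libraries against 3 allow).

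The log2 ratio of Cat to Sod1, the peroxide-removing over a peroxide-forming enzyme, was -1.12, -1.69 and -0.76 in control libraries 1, 2 and 3, and -1.77, -0.80 and -1.38 in hypergravity libraries 1, 2 and 3. Its mean differed by -0.13 between the groups (exact permutation test, p = 0.7, adjusted 1), against SDs of 0.47 in control cells and 0.49 after hypergravity. Between the inducible enzymes, the log2 ratio of Hmox1 to Nqo1 was -0.30, -1.09 and -0.06 in control libraries 1, 2 and 3, and -1.36, -0.54 and 0.62 in hypergravity libraries 1, 2 and 3. It differed by 0.06 on average (exact permutation test, p = 1, adjusted 1), and the SD among hypergravity libraries was 1.00, compared with 0.54 among controls. Single libraries turned its sign: the difference was 0.53 without hypergravity library 1 and -0.47 without hypergravity library 3. The difference in the ratio of Cat to Sod1 likewise ran from -0.39 without hypergravity library 2 to 0.10 without hypergravity library 1, and that in the ratio of Sod2 to Sod1 from -0.12 without hypergravity library 2 to 0.18 without hypergravity library 3. None of the 3 ratios differed between the groups by more than the libraries of a group differed among themselves.

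**Figure D4:**
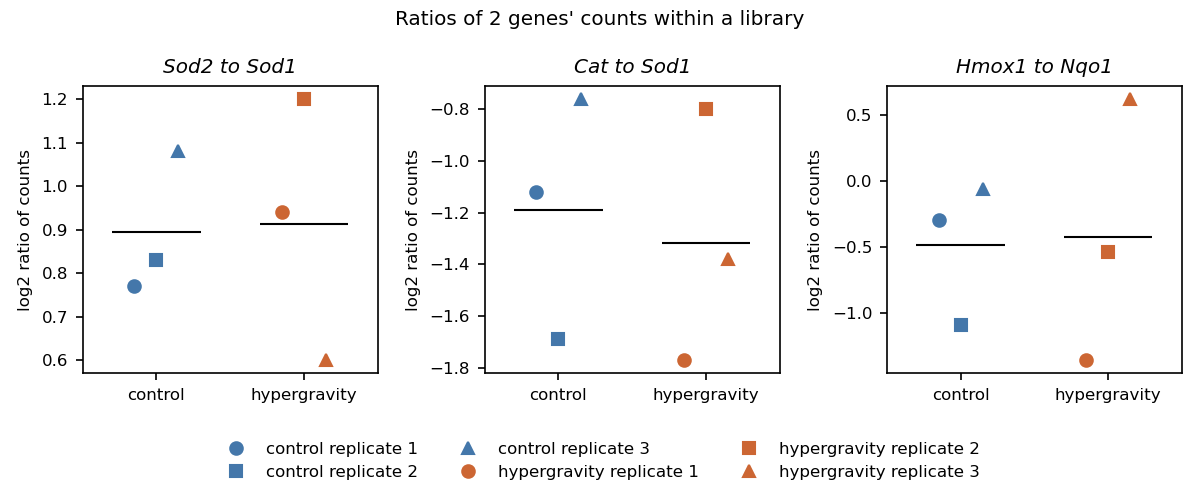
Log2 ratio of the read counts of a pair of genes in the same library (y axis, with a separate range in each panel), for 3 control and 3 hypergravity libraries; horizontal lines are group means. The groups overlap in each panel, and the means differ by 0.02 (Sod2 to Sod1), -0.13 (Cat to Sod1) and 0.06 (Hmox1 to Nqo1).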

How the data were processed

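RNA from isolated ventricular cardiomyocytes was sequenced in 3 control and 3 hypergravity libraries. The authors deposited raw counts of reads per gene, and per the labels their processing notes name FastQC, Trimmomatic, HISAT2 and HTSeq with the genome build mRatBN7.2. Versions, the annotation release and the strand setting of the counting are not given in the sources used here, so that reads of overlapping genes cannot be told apart. The 5 summary rows that name no gene were left out of library sizes and tests. They held alignments assigned to no counted feature of a gene (2.85 to 4.40% of those listed), on several genes (2.83 to 4.01%) and at several places (1.69 to 2.58%).

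Tests on the counts used the quasi-likelihood method of edgeR 4.0.16 in R 4.3.3, after TMM scaling and the filterByExpr filter. P-values were adjusted after Benjamini and Hochberg over all genes tested, at a threshold of 0.05. The standard error of a log2 fold change was taken as its size over the root of the F statistic. Alternatives used DESeq2 (1.42.0) and limma-voom (limma 3.58.1). Wilson intervals (95%) cover counting error only. For ratios, 0.5 was added to each count. The procedure was tested on simulated counts with changes larger than those of the 6 genes and the same baseline composition in every library. That test does not cover changes of the size seen here or the scaling of libraries that differ in composition. The members and gene lists were chosen with earlier results of these data known. The files list identifiers without names, and 0 of them matched the RefSeq table (assembly GRCr8); the identifiers of the 6 genes came with their symbols when the genes were chosen. That table was used only for the names of overlapping genes. Lists of partner genes, of cell type markers and of genes with a like pattern were not analysed here. No library was a copy of another: the chi-square of each pair's counts was at least 31.8 per degree of freedom.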

Additional observations from a re-analysis of the deposited data

How the results depend on the processing

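None of the 6 genes passed the adjusted threshold in any of the 14 alternatives, and 0 to 2 of them had an unadjusted p under 0.05. Gclc and Cat kept their direction in all 14 (log2 fold changes from 0.27 to 0.99 and from -0.51 to -0.09). With no scaling beyond library size, Nqo1 (0.04), Sod1 (0.04) and Sod2 (0.08) reversed, where the median of all genes moved to 0.32. Leaving out each library gave from -0.75 to 0.04 for Hmox1, which reversed without hypergravity library 1. It gave from -0.53 to -0.18 for Nqo1, from -0.37 to -0.12 for Sod1 and from -0.35 to -0.16 for Sod2. Over the same fits the difference between groups ran from -0.12 to 0.18 for the ratio of Sod2 to Sod1, from -0.39 to 0.10 for Cat to Sod1 and from -0.47 to 0.53 for Hmox1 to Nqo1; each of these 3 differences changed sign.

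Over all genes, edgeR called 0 higher and 4 lower, with 875 and 740 at an unadjusted p under 0.05. DESeq2 called 175 higher and 151 lower, and the absence of a filter gave 4 higher and 11 lower. No scaling beyond library size gave 1 lower and 0 higher (843 higher and 115 lower at an unadjusted p under 0.05), and leaving out the 10 most abundant genes gave 0 lower (640 at an unadjusted p under 0.05). Leaving out each library gave 0 to 1 lower. With the replicate block 0 genes were lower (397 at an unadjusted p under 0.05), and Gclc had a log2 fold change of 0.65 (unadjusted p = 0.0325, adjusted p = 0.553, edgeR). Its unadjusted p was also under 0.05 with no scaling beyond library size (0.0313, adjusted 0.556) and with no filter (0.0352, adjusted 0.412). Same-numbered libraries deviated together with correlations of -0.468, -0.107 and 0.209, which gives no pairing by number. The cause of these differences was not tested. Gclc, Nqo1 and Hmox1 had from 82 to 430 reads per library and counting errors of 4.82 to 11.0% of the level.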
